A study of Rattus norvegicus with 6 samples.

Results

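Sprouty, Spred and ERK phosphatase genes encode the feedback inhibitors of ERK signaling, and 9 of them were followed here in cultured rat oligodendrocyte precursor cells (OPCs): Spry1, Spry2, Spry4, Spred1, Spred2, Spred3, Dusp4, Dusp5 and Dusp6. They were taken by gene name from the 32883 genes of the deposited table, and each name matched 1 gene. All 9 members were among the 14670 genes that passed the filter on low counts. The cells came from cerebral cortices of newborn (P0) Sprague Dawley rats, 2 animals to a preparation by the growth protocol, and were shaken off mixed glial cultures grown in serum. They were then kept in Neurobasal with B27 and N2. The control group received the solvent DMSO, and the treated group received 5 µM ZJU-37, an inhibitor of the kinase RIPK1, in an equal volume. The labels give 36 h of treatment for both groups, whereas the Methods give a shorter time. Each group had 3 libraries of poly-A RNA, which the Methods call biological repeats and a legend calls plate wells, so that the p-values measure the spread between these libraries, which may in part be technical.

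ERK signaling runs from a receptor tyrosine kinase through RAS, RAF and MEK to the ERK kinases. Its activity raises the transcription of its own inhibitors. Sprouty proteins act between the receptor and RAF, Spred proteins bring the RAS inactivator neurofibromin to the membrane, and the dual specificity phosphatases DUSP4, DUSP5 and DUSP6 remove the activating phosphates, DUSP6 from ERK in the cytoplasm and DUSP4 and DUSP5 in the nucleus. In OPCs the pathway is driven by PDGF and FGF and is known for its part in both proliferation and differentiation.

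Depth was between 13935865 and 24097927 counts per library, and the smallest library allowed a limit of 0.215 CPM (counts scaled to library size) for 3 counts, counting error only. The lowest count of any member was 43, for Dusp5 in DMSO replicate 1. CPM values are on the TMM scale, which corrects library totals for differences in composition. The 8 OPC marker genes were all detected, with 4 higher and 3 lower with ZJU-37. The summed CPM of 8 mature oligodendrocyte markers ran from 10787 to 21863 with DMSO and from 4623 to 9776 with ZJU-37. Astrocyte markers (8 genes) summed to between 1049 and 1683 CPM and to between 906 and 1360 CPM, and microglia markers (9 genes) to between 1920 and 3289 CPM and to between 1379 and 2863 CPM, in the same order. The mean was lower with ZJU-37 for 7, 8 and 8 genes of these lists, and each of their genes had counts in at least 1 library. Neuron markers (6 genes) summed to between 705 and 900.3 CPM with DMSO and to between 618 and 825 CPM with ZJU-37. Of 6 fibroblast and vascular markers, 5 were matched by name, of which Cldn5 was at 0 in every library, and their sum was at most 98.8 CPM. Within each of the 3 pairs of libraries of the same number, the sum was lower with ZJU-37 for the mature oligodendrocyte, astrocyte, microglia, neuron and fibroblast and vascular markers and higher for the OPC markers. Called lower were 1 mature oligodendrocyte, 1 astrocyte, 0 microglia and 0 neuron markers in edgeR, and 4, 5, 4 and 2 in that order once the replicate number was a block. The part of these cells in the results below was not tested, and fewer cells of a type cannot be told apart from less RNA per cell in bulk libraries.

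Promoter sequence from RefSeq was found for 8 of the 9 members, under the assembly GRCr8, with 9 windows in all since Spry2 had a pair of start sites, and Dusp4 was the member without an entry. Windows of 300 bases, from 250 before to 50 after each start site, were searched on both strands for 5 motifs that factors downstream of ERK are known to bind: CCGGAA (ETS factors), TGAATGNA (the repressor CIC), TGANTCA (AP-1), TGACGTCA (CREB and ATF factors) and the CArG box (SRF). Of all 33469 windows, 15.0%, 4.11%, 7.33%, 1.83% and 1.64% held these motifs in that order. Spry2 held CCGGAA from base -171 to -166 in 1 of its windows, and Spry4 held it on the reverse strand from -81 to -76 and the CIC motif, also on the reverse strand, from -198 to -191. Dusp5 held CCGGAA on the reverse strand from +5 to +10 and a pair of adjacent CArG boxes from -82 to -63. None of the 5 motifs was in the windows of Spry1, Spred1, Spred2, Spred3 and Dusp6, which says only that these letters were absent there. A match is a description of the letters and not of a bound site. The 250 bases before the start sites of Spry2 (chr15:89111927-89112176, minus strand) and of Dusp5 (chr1:262543524-262543773, plus strand) are printed 5′ to 3′ to show an ETS motif and the CArG pair beside genes that rose with ZJU-37, with motif matches in capitals.
Spry2: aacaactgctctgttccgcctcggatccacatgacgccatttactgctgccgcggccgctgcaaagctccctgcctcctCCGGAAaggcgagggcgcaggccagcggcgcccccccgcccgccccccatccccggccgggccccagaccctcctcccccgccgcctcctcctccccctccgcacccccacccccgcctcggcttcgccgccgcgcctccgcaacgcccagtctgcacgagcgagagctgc
Dusp5: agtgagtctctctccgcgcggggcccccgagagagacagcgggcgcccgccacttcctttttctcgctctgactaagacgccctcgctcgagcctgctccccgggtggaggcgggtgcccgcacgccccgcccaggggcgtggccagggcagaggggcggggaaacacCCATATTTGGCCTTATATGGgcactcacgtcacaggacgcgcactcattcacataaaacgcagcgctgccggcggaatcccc

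All 3 Sprouty members rose with ZJU-37, with log2 fold changes of 1.57 for Spry1, 1.59 for Spry4 and 0.98 for Spry2. Spry3, which is no member, had a log2 fold change of -0.04, as given below. Of the 9 members, 6 were higher at an adjusted p-value under 0.05 in edgeR's quasi-likelihood test and 0 were lower, against 9.43% of all tested genes called higher and 5.58% called lower, 15.0% in all. The same 6 members, Spry1, Spry2, Spry4, Spred2, Spred3 and Dusp5, had 3 ZJU-37 libraries that lay above all 3 DMSO libraries, a pattern found in 19.0% of all tested genes (35.2% where lower groups are counted too). The median log2 fold change was 0.60 over the 9 members and -0.03 over all tested genes. Because the members were chosen with results of these data known, no test was made over the list.

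**Figure D1:**
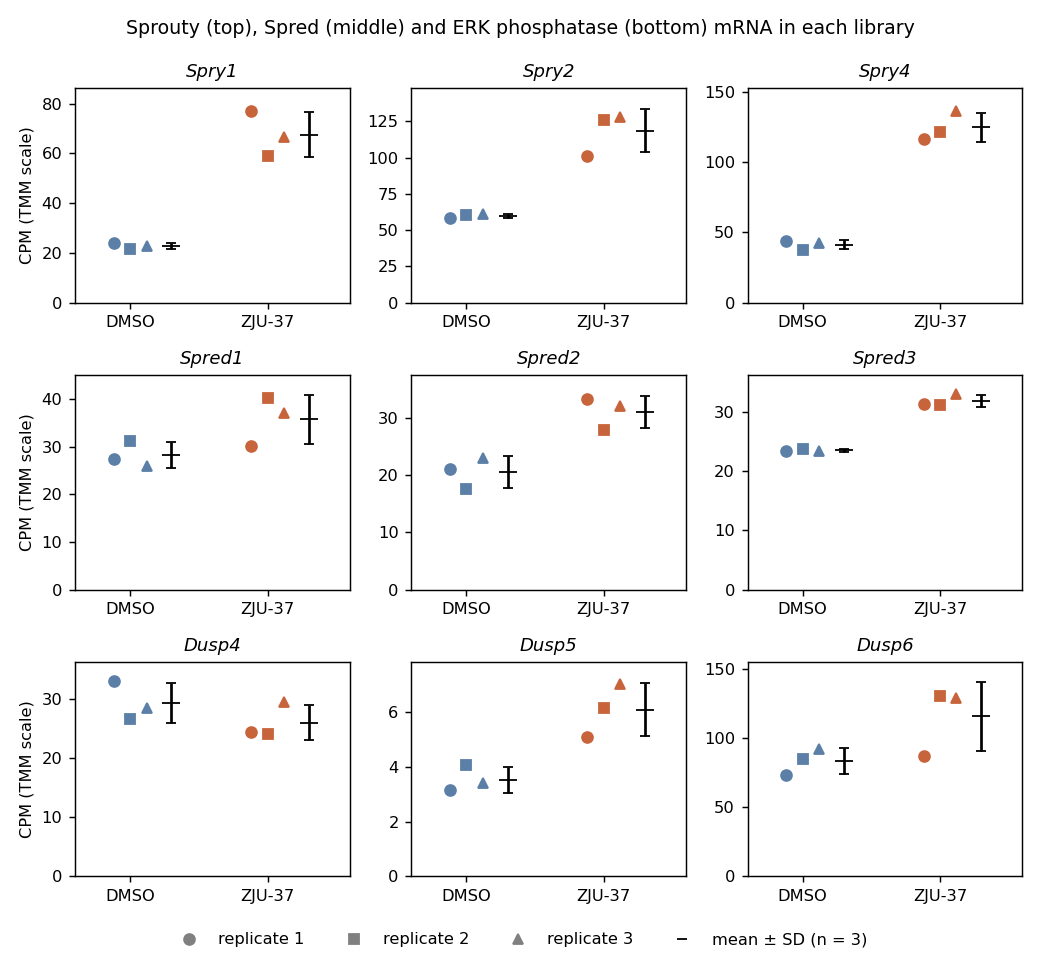
Level of each member in every library, in CPM on the TMM scale, with DMSO libraries in blue, ZJU-37 libraries in orange, symbols for the replicate numbers and bars for the mean ± SD (n = 3 libraries). The ZJU-37 libraries lay above all DMSO libraries for the 3 Sprouty members, Spred2, Spred3 and Dusp5, and overlapped them for Spred1, Dusp4 and Dusp6.

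Spry1, a membrane-associated inhibitor of growth factor signaling, stood at 23.8, 21.5 and 22.8 CPM across the DMSO replicates, taken in number order here and below, against 77.1, 59.0 and 66.5 CPM across those given ZJU-37. The groups were far apart, and the spread was wider with ZJU-37. Group means were 22.7 ± 1.15 CPM for DMSO and 67.5 ± 9.11 CPM for ZJU-37 (SD over n = 3 libraries), for a log2 fold change of 1.57 whose standard error was 0.11 (adjusted p = 4.05e-04, edgeR). In the list of all 14670 tested genes ordered by fold change, it took place 93.

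Spry4, which like its relatives blunts RAS activation, stood at 43.8, 37.7 and 42.4 CPM across the DMSO replicates, against 116, 121 and 136 CPM across those given ZJU-37. Every ZJU-37 library was well above every DMSO library. Group means were 41.3 ± 3.21 CPM for DMSO and 125 ± 10.3 CPM for ZJU-37 (SD over n = 3 libraries), which is 3.02-fold (95% confidence interval 2.60 to 3.50), a log2 fold change of 1.59 whose standard error was 0.09 (adjusted p = 2.70e-04, edgeR). It took place 87 in the same order.

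Spry2, the Sprouty member with the highest level per length, stood at 58.3, 60.8 and 60.9 CPM across the DMSO replicates, against 101, 126 and 128 CPM across those given ZJU-37. The DMSO libraries were nearly alike, and ZJU-37 replicate 1 was lower than the other two of its group. Group means were 60.0 ± 1.49 CPM for DMSO and 119 ± 14.8 CPM for ZJU-37 (SD over n = 3 libraries), for a log2 fold change of 0.98 whose standard error was 0.10 (adjusted p = 0.00114, edgeR). In the deposited table the annotated span of Spry2 overlaps that of Mycbp2 on the same strand. Whether their exons overlap was not checked, and the counts of Spry2 are uncertain for that reason. No other member had an overlapping gene. Spry3, the remaining Sprouty gene, which is no member and is named after its values were seen, had 9.42 ± 1.55 CPM with DMSO and 9.15 ± 2.49 CPM with ZJU-37 (SD over n = 3 libraries), with a log2 fold change of -0.04 and a 95% confidence interval from -0.58 to 0.50.

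The Spred genes, which encode proteins with a Sprouty-like C-terminal domain and an EVH1 domain, had log2 fold changes from 0.34 to 0.60, and 2 of the 3 were called higher. Spred3 stood at 23.4, 23.8 and 23.4 CPM across the DMSO replicates, against 31.3, 31.3 and 33.1 CPM across those given ZJU-37. The libraries of each group were nearly alike and the groups did not overlap. Group means were 23.5 ± 0.223 CPM for DMSO and 31.9 ± 1.05 CPM for ZJU-37 (SD over n = 3 libraries), for a log2 fold change of 0.44 whose standard error was 0.07 (adjusted p = 0.00633, edgeR).

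Spred2 stood at 21.1, 17.5 and 22.9 CPM across the DMSO replicates, against 33.2, 27.9 and 32.1 CPM across those given ZJU-37. Replicate 2 was the lowest of its group in both, and the groups did not overlap. Group means were 20.5 ± 2.74 CPM for DMSO and 31.1 ± 2.81 CPM for ZJU-37 (SD over n = 3 libraries), for a log2 fold change of 0.60 whose standard error was 0.12 (adjusted p = 0.0203, edgeR). This call was lost without DMSO replicate 1, DMSO replicate 2 or ZJU-37 replicate 3, where the adjusted p-value was 0.0562, 0.0545 and 0.0712, and over all alternatives the adjusted p-value ran from 3.46e-04 to 0.0712 (edgeR and the other tools run).

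Spred1 stood at 27.5, 31.2 and 25.9 CPM across the DMSO replicates, against 30.1, 40.2 and 37.0 CPM across those given ZJU-37. ZJU-37 replicate 1 was below DMSO replicate 2, whereas within each pair of the same number the ZJU-37 library was the higher one. The log2 fold change was 0.34 with a standard error of 0.13 (adjusted p = 0.128, and 0.0106 with a replicate block, edgeR). Without ZJU-37 replicate 1 it was 0.47 (adjusted p = 0.0354, edgeR), and over all alternatives the adjusted p-value ran from 0.0106 to 0.315.

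Of the 3 ERK phosphatase genes, 1 was called higher and 0 were called lower. Dusp5, a nuclear phosphatase selective for ERK, stood at 3.14, 4.07 and 3.40 CPM across the DMSO replicates, against 5.08, 6.16 and 7.03 CPM across those given ZJU-37. It was the least abundant member, with between 43 and 170 counts in a library, and its groups did not overlap. Group means were 3.54 ± 0.478 CPM for DMSO and 6.09 ± 0.974 CPM for ZJU-37 (SD over n = 3 libraries), for a log2 fold change of 0.78 whose standard error was 0.19 (adjusted p = 0.0400, edgeR). With any single library other than ZJU-37 replicate 1 left out, the call was lost. The adjusted p-value was then 0.115, 0.0680 and 0.122 without DMSO replicates 1, 2 and 3, and 0.0912 and 0.130 without ZJU-37 replicates 2 and 3, and over all alternatives it ran from 0.00756 to 0.130 (edgeR and the other tools run).

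Dusp6, the cytoplasmic ERK phosphatase and the phosphatase member with the highest level, stood at 73.5, 84.5 and 91.8 CPM across the DMSO replicates, against 87.0, 130 and 129 CPM across those given ZJU-37. ZJU-37 replicate 1 lay within the DMSO range and the other two lay above it. Group means were 83.3 ± 9.24 CPM for DMSO and 115 ± 24.6 CPM for ZJU-37 (SD over n = 3 libraries), for a log2 fold change of 0.47 whose standard error was 0.17 (adjusted p = 0.128, and 0.00161 with a replicate block, edgeR). Without ZJU-37 replicate 1 the log2 fold change was 0.65 (adjusted p = 0.0127, edgeR), and over all alternatives the adjusted p-value ran from 0.00161 to 0.289.

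Dusp4, which acts on nuclear ERK and related kinases, stood at 33.0, 26.5 and 28.4 CPM across the DMSO replicates, against 24.4, 24.1 and 29.4 CPM across those given ZJU-37. The groups overlapped, and the pair of replicate 3 went the other way from the pairs of replicates 1 and 2. The log2 fold change was -0.17 with a 95% confidence interval from -0.46 to 0.11 (adjusted p = 0.416, and 0.217 with the block, edgeR). With the block 8 of the 9 members were called higher, all but Dusp4, against 16.2% of all tested genes called higher, 15.9% called lower and 32.1% in all.

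**Figure D2:**
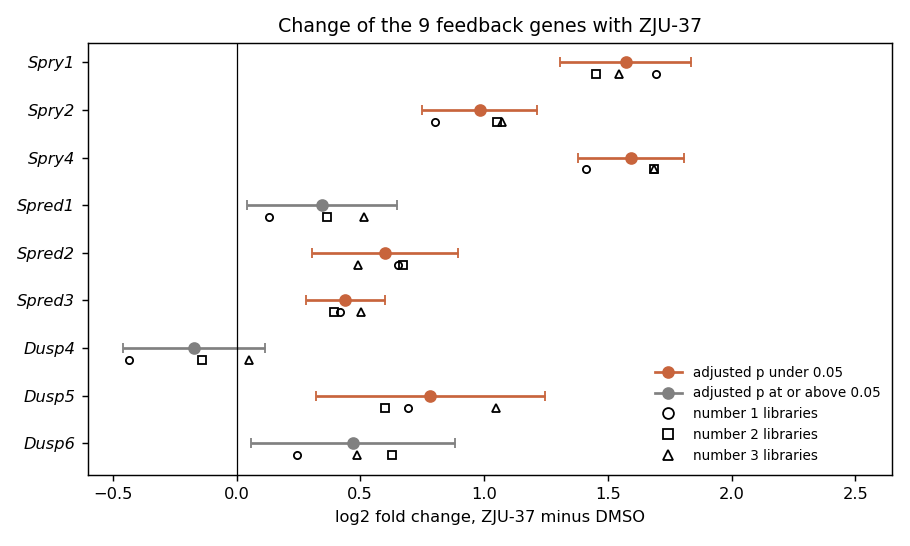
Log2 fold change of each member (ZJU-37 minus DMSO) from edgeR, filled points with 95% confidence intervals, in orange where the adjusted p-value was under 0.05 and in grey otherwise, and open symbols for the difference within each pair of libraries of the same number. Dusp4 has the only estimate below 0, and the pairs of the other 8 members all lie above 0, a pattern not counted over all tested genes.

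Within the pairs of replicates 1, 2 and 3, the log2 difference was 1.69, 1.45 and 1.54 for Spry1, 0.80, 1.05 and 1.07 for Spry2, and 1.41, 1.69 and 1.69 for Spry4. For Dusp6 the differences were 0.24, 0.63 and 0.49, so that the pair of replicate 1 was the smallest, whereas it was the largest for Spry1. In all, 8 of the 9 members were higher with ZJU-37 in all 3 pairs. The share of all tested genes with this pattern was not counted, so the number has no background to be read against.

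The ZJU-37 libraries differed among themselves. Replicate 1 was the lowest of the 3 for 5 members (Spry2, Spry4, Spred1, Dusp5 and Dusp6) and the highest for Spry1 and Spred2, and replicate 3 was the highest for 5 members and the lowest for 0. The same replicate 1 had the highest OPC marker sum of its group, 6144 CPM against 4465 and 4944 CPM in replicates 2 and 3, and the lowest microglia marker sum, 1379 CPM against 2863 and 2090 CPM. The part of these differences in the members' values was not tested.

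To ask whether members of a family differed in their change, the log2 ratio of their counts per length was taken within each library, which removes library size, and compared between groups for 9 pairs of genes. The ratio of Spry1 to Spry2 was -1.75, -1.96 and -1.88 in DMSO replicates 1, 2 and 3 and -0.86, -1.56 and -1.41 in ZJU-37 replicates 1, 2 and 3. The groups did not overlap, and the mean was 0.59 higher with ZJU-37 (two-sided exact permutation test, p = 0.1, which is as low as 3 libraries against 3 can give, and 0.225 adjusted over the 9 pairs). Without ZJU-37 replicate 1 the difference was 0.38, and over the libraries left out in turn it reached 0.73. The ratio of Spry2 to Spry4 fell by 0.62 on the log2 scale in the means, from 1.94 ± 0.140 to 1.32 ± 0.128 (SD, n = 3 libraries each), again with no overlap (p = 0.1, exact permutation test, and 0.225 adjusted). No ratio could pass 0.05 in this permutation test with 3 libraries against 3.

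The ratio of Spry1 to Spry4 had a mean of 0.07 ± 0.046 with DMSO and 0.04 ± 0.255 with ZJU-37 (SD, n = 3 libraries each), a difference of -0.03 (p = 1, exact permutation test). ZJU-37 replicate 1 stood at 0.34 and replicates 2 and 3 at -0.11 and -0.10, so that the libraries with ZJU-37 lay on both sides of those with DMSO. Among the Spred genes the differences were -0.27 for Spred1 to Spred2, -0.10 for Spred1 to Spred3 and 0.17 for Spred2 to Spred3, each with overlapping groups (p = 0.5 for each, exact permutation test, and 0.562 adjusted). Single libraries moved these values: Spred1 to Spred2 had -0.082 without DMSO replicate 2 and -0.098 without ZJU-37 replicate 1, and Spred2 to Spred3 had 0.049 and 0.10 without the same libraries. Dusp4 to Dusp5 had a mean log2 ratio of 2.34 ± 0.345 with DMSO and 1.38 ± 0.153 with ZJU-37, and Dusp4 to Dusp6 one of -2.04 ± 0.306 and -2.66 ± 0.304 (SD, n = 3 libraries each). Both were lower with ZJU-37 without overlap, by 0.96 and 0.63 (p = 0.1 for each, exact permutation test, and 0.225 adjusted). The ratio of Dusp5 to Dusp6 had overlapping groups and was 0.33 higher with ZJU-37 (p = 0.2, exact permutation test, and 0.360 adjusted).

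**Figure D3:**
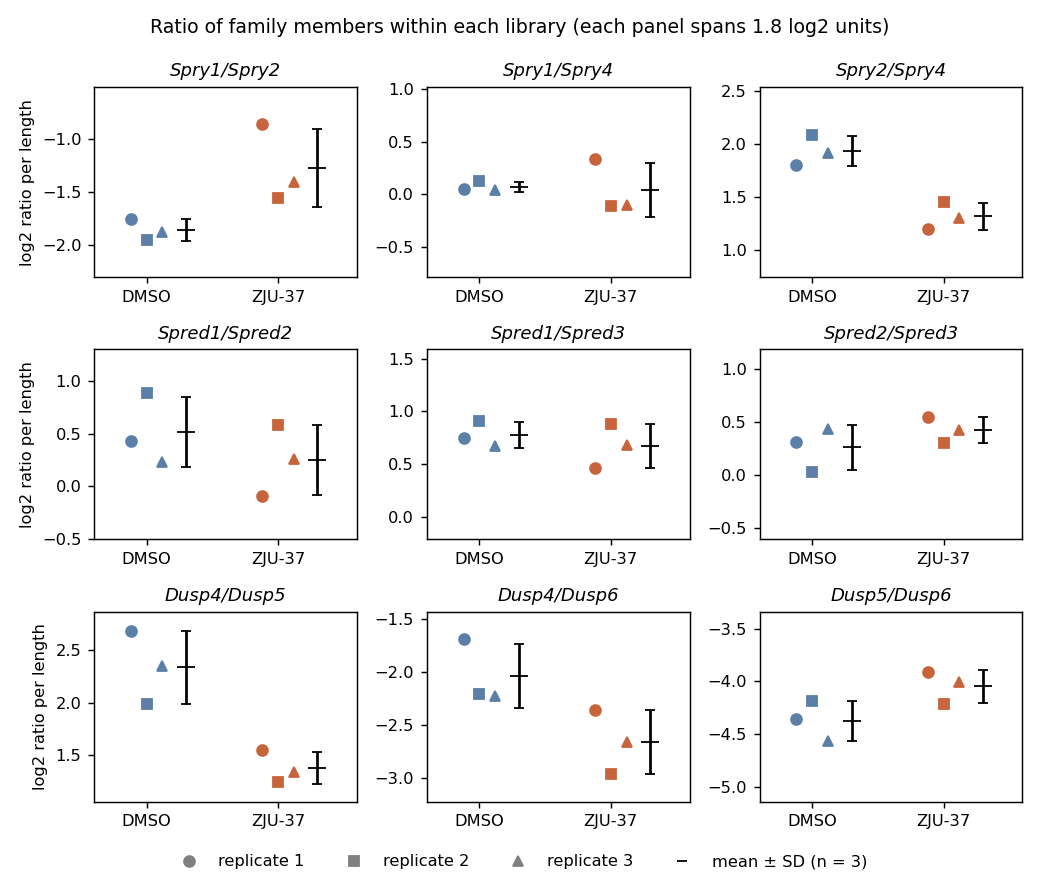
Log2 ratio of counts per gene length for the 9 pairs of family members within each library (vertical axes span equal ranges), with DMSO in blue, ZJU-37 in orange, symbols for replicate numbers and bars for the mean ± SD (n = 3 libraries). The groups do not overlap for Spry1/Spry2, Spry2/Spry4, Dusp4/Dusp5 and Dusp4/Dusp6.

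For levels between genes the deposited FPKM values were used, which are scaled per gene length. With DMSO the order of the mean levels was Spry2 (33.0 ± 0.938 FPKM), Dusp6 (30.1 ± 3.39), Spred1 (17.2 ± 1.73), Spred2 (12.03 ± 1.56), Spred3 (9.98 ± 0.143), Spry1 (9.07 ± 0.414), Spry4 (8.64 ± 0.629), Dusp4 (7.33 ± 0.806) and Dusp5 (1.45 ± 0.205 FPKM, SD over 3 libraries throughout). Spry2 and Dusp6, Spry1 and Spry4, and Spry4 and Dusp4 overlapped between neighbours in this order, and the other neighbours did not. With ZJU-37 the level was 65.0 ± 7.44 FPKM for Spry2, 41.6 ± 8.48 FPKM for Dusp6, 27.0 ± 3.91 FPKM for Spry1 and 26.0 ± 1.96 FPKM for Spry4. Spry1 and Spry4 thus stood in places 3 and 4 with ZJU-37 and in places 6 and 7 with DMSO. Spred1 (21.7 ± 2.92 FPKM), Spred2 (18.2 ± 1.78 FPKM) and Spred3 (13.5 ± 0.381 FPKM) followed, and Dusp4 (6.48 ± 0.706 FPKM) and Dusp5 (2.50 ± 0.376 FPKM) were again the lowest. With ZJU-37 the overlapping neighbours were Spry1 and Spry4, and Spred1 and Spred2.

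**Figure D4:**
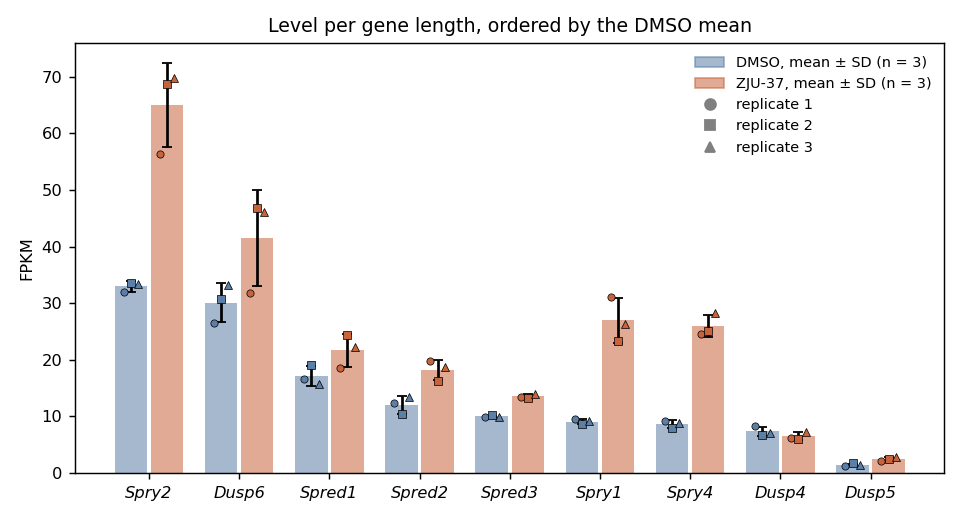
Level of each member in FPKM, ordered by the DMSO mean, with bars for group means, error bars for the SD (n = 3 libraries) and symbols for single libraries. With DMSO the levels of Spry1 and Spry4 are below those of the 3 Spred genes, and with ZJU-37 their means are above them.

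The sum of the 3 Sprouty members was 50.5, 50.2 and 51.4 FPKM in DMSO replicates 1, 2 and 3 and 112, 117 and 124 FPKM in ZJU-37 replicates 1, 2 and 3. The Spred sum was 39.2 ± 0.357 FPKM with DMSO and 53.4 ± 1.65 FPKM with ZJU-37, and the phosphatase sum 38.9 ± 2.84 FPKM and 50.5 ± 9.08 FPKM (SD, n = 3 libraries each). The Sprouty share of the 9-gene sum was 39.4% ± 0.783 with DMSO and 53.2% ± 1.63 with ZJU-37, and both other shares were smaller with ZJU-37, 30.4% and 24.1% for the Spred genes and 30.2% and 22.7% for the phosphatases. These sums are descriptions with no test.

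Apart from the members, 31 genes of the ERK cascade core were tested, from adaptors and RAS proteins to the kinases. Of these 1 was called higher and 3 were called lower (2 and 8 with the block), with a median log2 fold change of -0.08. Both directions together are near the share over all tested genes, of which 15.0% were called, and 32.1% with the block. By direction, 9.43% of all tested genes were called higher and 5.58% lower (16.2% and 15.9% with the block). The core thus had a smaller share higher and a larger share lower, a lean that was not tested. Mapk3, which encodes an ERK kinase, fell by 0.55 on the log2 scale (standard error 0.10, adjusted p = 0.0124, edgeR), and the mean went from 279 ± 27.6 to 191 ± 16.6 CPM (SD, n = 3 libraries each). The receptor adaptor Frs3 and the downstream kinase gene Rps6ka2 were lower, with log2 fold changes of -0.70 and -0.76. The Rps6ka2 call was lost without DMSO replicate 1, DMSO replicate 2 or ZJU-37 replicate 3 (adjusted p = 0.0631, 0.0716 and 0.0729, edgeR).

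Of 22 other negative regulators, 1 was called higher and 2 were called lower (4 and 4 with the block), and the median log2 fold change was -0.01. Here too both directions together are near the 15.0% and 32.1% over all tested genes. Lrig3, of a family of receptor-binding membrane proteins, had a log2 fold change of 0.56 (adjusted p = 0.0369, edgeR), and this higher call was lost with each of the 6 libraries left out in turn. Rnf43 and Spsb1 were lower, with log2 fold changes of -1.55 and -0.68; the first encodes a ubiquitin ligase best known for removing WNT receptors, and the second an adaptor of a ubiquitin ligase. Rnf43 had a low level, with a mean of 1.67 CPM with DMSO and 0.562 CPM with ZJU-37, and its call was lost without any 1 of the DMSO replicates or without ZJU-37 replicate 3 (adjusted p from 0.0507 to 0.0683, edgeR). Nf1, which encodes the neurofibromin that Spred proteins recruit, had 71.3 ± 6.51 CPM with DMSO and 77.4 ± 8.63 CPM with ZJU-37 (SD over n = 3 libraries), with a log2 fold change of 0.12 and a 95% confidence interval from -0.13 to 0.37.

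Of the other dual specificity phosphatase genes, 18 of 19 were tested, 0 were called higher and 2 were called lower (0 and 4 with the block). Among all tested genes 9.43% were called higher and 5.58% lower, 15.0% in all (16.2%, 15.9% and 32.1% with the block). Dusp15, an atypical phosphatase gene expressed in oligodendrocytes, stood at 311, 258 and 197 CPM across the DMSO replicates, against 52.1, 72.5 and 37.2 CPM across those given ZJU-37. Its groups were widely separated, with a log2 fold change of -2.24 (SE 0.28, adjusted p = 0.00318, edgeR), in libraries where the mature oligodendrocyte marker sum was lower as well. Dusp7, a relative of Dusp6 that also acts on cytoplasmic ERK, went from 95.7 ± 7.12 to 67.6 ± 3.91 CPM (SD over n = 3 libraries), with a log2 fold change of -0.50 (SE 0.08, adjusted p = 0.00664, edgeR).

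At the receptor level, 15 of 16 receptor tyrosine kinase genes were tested, 3 were called higher and 1 was called lower (6 and 3 with the block). The shares over all tested genes were 9.43% called higher and 5.58% called lower (16.2% and 15.9% with the block). Pdgfra, the PDGF receptor of OPCs, stood at 450, 358 and 374 CPM across the DMSO replicates, against 1124, 651 and 755 CPM across those given ZJU-37. The groups did not overlap, with a log2 fold change of 1.10 (SE 0.21, adjusted p = 0.0182, edgeR). The call was lost without DMSO replicate 2 or 3, where the log2 fold change was 1.03 and 1.06 (adjusted p = 0.0775 and 0.0693, edgeR). ZJU-37 replicate 1, the highest of its group for Pdgfra and Spry1, was the lowest for Spry2 and Dusp6. Fgfr1 and Ntrk3 were higher, with log2 fold changes of 0.35 and 0.77, and Fgfr2 was lower with one of -0.79. Without any 1 of the ZJU-37 replicates the Fgfr2 call was lost (adjusted p from 0.0526 to 0.0805, edgeR), and the Ntrk3 call was lost without any 1 library but DMSO replicate 1 (adjusted p from 0.0515 to 0.134, edgeR) and with scaling by library size alone (adjusted p = 0.0504, edgeR).

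Of 23 ERK output genes, which are transcribed when ERK is active, 11 were called higher and 0 lower (11 and 1 with the block), and the median log2 fold change was 0.27. Over all tested genes, 9.43% were called higher and 5.58% lower (16.2% and 15.9% with the block). The higher output genes included all 3 PEA3 ETS factor genes, 5 of 12 immediate early factor genes and 3 of 8 others. The 4 with the largest changes were Egr2 and Egr1, which encode zinc finger immediate early factors, Ccnd1, the gene of cyclin D1, and Phlda1, with log2 fold changes of 2.14, 2.11, 1.37 and 1.36. Egr1 stood at 51.0, 49.3 and 54.8 CPM across the DMSO replicates, against 173, 255 and 240 CPM across those given ZJU-37 (adjusted p = 4.39e-04, edgeR), and ZJU-37 replicate 1 was the lowest of its group, as it was for Spry2 and Spry4. These 11 genes were called higher in each of the 13 other fits, which include those with 1 library left out. The list was drawn up with earlier results of these data known, so that its count is no independent evidence.

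**Figure D5:**
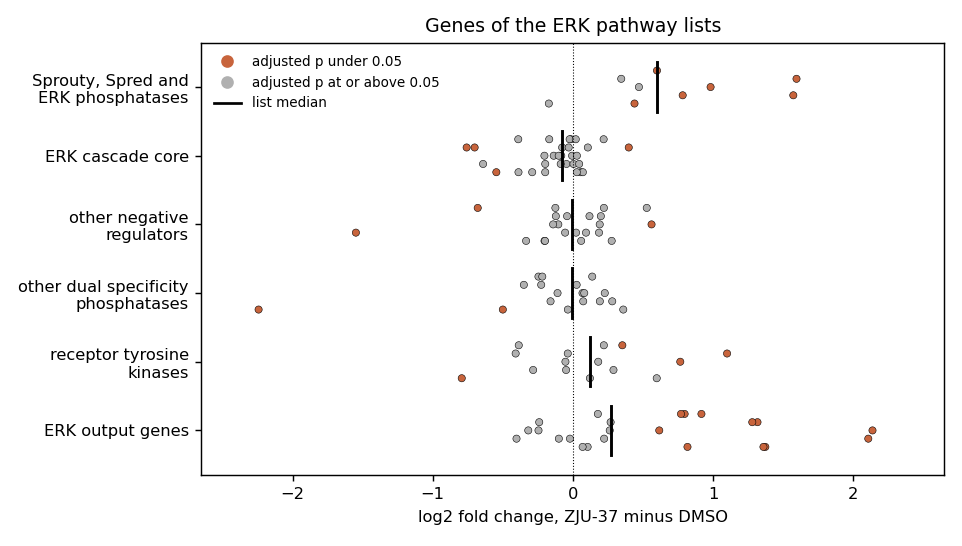
Log2 fold change (ZJU-37 minus DMSO) of every tested gene in the 9-member list and in 5 lists of the ERK pathway, in orange where the adjusted p-value was under 0.05 and in grey otherwise, with black bars for list medians. The list medians are 0.60 for the members and 0.27 for the ERK output genes, against -0.08 for the cascade core.

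The genes whose log2 CPM over the 6 libraries was most like that of a called member were looked up among 10300 other genes whose mean reached 10 CPM. The highest Pearson r values were those of Ubr7 and Cdca8 for Spry1, Ier2 and S1pr2 for Spry2, Nptxr and Zc3h14 for Spry4, Fabp7 and Sgsm2 for Spred2, Tmem107 and Lef1 for Spred3, and LOC102549726 and Dtymk for Dusp5. These r values were at least 0.9936 over 6 libraries, which fall into the treatment groups and share them, so that the values describe mainly the gap between the groups. The log2 fold changes of these genes ran from 0.13 for LOC102549726 to 2.25 for Lef1, so that a like pattern did not mean a like size of change. Among the members, Spry4 and Spred3 had r = 0.99, and Dusp4 had a negative r with every other member, from -0.51 to -0.34, over the same 6 libraries.

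By the deposited coordinates, whose build the sources used here do not give, the plus strand carries Spry1 (chr2:124400679-124405331), Spry4 (chr18:32594958-32609864), Spred1 (chr3:108795235-108857556), Spred2 (chr14:104191517-104290456), Dusp5 (chr1:274245184-274258595) and Dusp6 (chr7:41475163-41479392). The minus strand carries Spry2 (chr15:90172975-90175802), Spred3 (chr1:88103719-88112683) and Dusp4 (chr16:61078175-61091169). For Spry4 these coordinates differ in strand from the GRCr8 promoter window, which lies on the minus strand of chr18. The Spry4 motif positions refer to that window, and the reason for the difference was not tested. The 9 members thus lie on 8 chromosomes, and the values are counts over whole genes.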

How the data were processed

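Poly-A RNA of 6 OPC libraries was sequenced. The authors deposited raw counts per gene made with featureCounts 1.5.0, and the submitters' processing notes also name HISAT2 2.0.5 and StringTie 1.3.3b, while the genome build is not given in the sources used here. The deposited FPKM values are the authors' own and are scaled per gene length and library. The 5 deposited columns with the authors' own group comparison (DESeq2) were not used. Genes low in counts were removed with filterByExpr, and the rest were scaled by TMM and tested in edgeR 4.0.16 (glmQLFit with robust estimation, R 4.3.3) over all genes, with Benjamini-Hochberg adjustment. A gene was called at an adjusted p-value under 0.05. Standard errors and 95% intervals came from the fold change and its F statistic.

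The fit was checked on simulated counts. Alternatives were DESeq2 1.42.0, voom of limma 3.58.1, other scalings and filters, the replicate number as a block and each library left out. For paralog ratios they were 0.5 added to each count, the block and each library left out. The numbers come from the labels. After group means were subtracted, libraries sharing a number correlated across genes at r = 0.39, 0.31 and 0.33, and all others at r from -0.27 to -0.01. The numbers were therefore treated as pairing in the alternative with a block, and blocked values are given where a call changed. The main fit with its calls and the main ratio tests had no block and ignore this pairing. Chi-square between libraries of a group was at least 11.8 per degree of freedom, so none was counted as a duplicate. The labels name no sequencing batch, and strand use in counting is not stated.

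The members and lists were chosen with earlier results of these data known. All 9 members are named; of other lists, up to 4 called genes with the largest changes and a mean of at least 1 CPM, plus Pdgfra, Mapk3 and Nf1, and the 2 genes most like each called member among those with a mean of at least 10 CPM. Some genes that this rule names are not reported here.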

Additional observations from a re-analysis of the deposited data

How the results depend on the processing

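The log2 fold changes of all 9 members kept their direction in every alternative run. Spry1, Spry2, Spry4 and Spred3 stayed under the adjusted threshold throughout, with log2 fold changes from 1.49 to 1.69, 0.95 to 1.10, 1.53 to 1.66 and 0.43 to 0.48, and Dusp4 stayed above it. With the replicate block, Spred1 (0.34) and Dusp6 (0.46) passed it as well, and the block changed no other member's call. With 1 library left out, the number of called members ran from 4 to 8, and the log2 fold change from 0.28 to 0.47 for Spred1, 0.50 to 0.70 for Spred2, 0.69 to 0.91 for Dusp5 and 0.39 to 0.65 for Dusp6. The difference in the Spry1 to Spry4 ratio ran from -0.18 to 0.045 there and that of Spred1 to Spred3 from -0.20 to 0.0050, so that neither has a stable sign (the first turned positive without ZJU-37 replicate 2 or 3, the second without ZJU-37 replicate 1). With 0.5 added to each count, each ratio difference kept its sign. The replicate block cannot move a ratio difference in this balanced design, and it raised the smallest p-value that a ratio could reach from 0.1 to 0.25 (exact permutation test).

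Counts over lists moved more. With the replicate block 4705 of all genes were called, 2371 higher and 2334 lower, against 2201, 1383 and 818 without it. With 1 library left out there were 1306 to 1927, 858 to 1259 and 374 to 668. With the block, the calls were 2 higher and 8 lower in the cascade core, 4 and 4 among other negative regulators, 4 lower among other dual specificity phosphatases, 6 higher and 3 lower among receptors, and 1 lower among the output genes. DESeq2 called 5 core genes lower, library size scaling called 2 higher, and the filter of at least 10 counts left 1 negative regulator lower. With 1 library left out, the core had 0 to 2 genes higher, the negative regulators 0 higher and 1 to 2 lower, and the receptors 1 to 3 higher and 0 to 1 lower. The log2 fold change of Spry3, which was not called, changed sign and ran from -0.25 to 0.15 with 1 library left out. The cause of these moves was not tested.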
